A study of Mus musculus with 4 samples.

Results

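The genes described here are 8 genes of the red blood cell: the adult globin genes Hba-a1 and Hbb-bt, and Slc4a1, Ank1, Epb42, Rhag, Rhd and Kel, whose products sit in or under the red cell membrane. They were chosen by name, and their 16 array probes were found by the RefSeq accession that each probe carries, among 33378 genes or transcripts with a probe. All 8 passed the filter on dim probes and were among the 21216 tested. The choice used no measured value of these files, but it was made with earlier results of the same arrays known.

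The study hybridised RNA of 4 mouse samples, each to its own array. Induced pluripotent stem (iPS) lines 7 and 13 (n = 2) were made from bone marrow mononuclear cells, carry the strain label C57BL/6 and came from mice transgenic for an Oct4-EGFP reporter. E14 embryonic stem (ES) cells (n = 1) are of strain 129. Bone marrow mononuclear cells (BMMNCs, n = 1), labelled C57BL/6 with no transgene given, are a mixture of marrow cells that includes blood cell precursors; how they were isolated is not given in the sources used here. ES and iPS cells grew on irradiated mouse embryonic fibroblasts with serum and leukaemia inhibitory factor, and were separated from this feeder layer by preplating on gelatin before RNA was taken. The labels give no age, no number of animals behind the BMMNC sample and no statement that a line is 1 clone.

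Red cells form in marrow from erythroblasts, which in their last divisions make almost only haemoglobin and the proteins of a tough, flexible membrane. Haemoglobin joins alpha chains, from Hba-a1 and its neighbour copy Hba-a2, with beta chains, from Hbb-bt and Hbb-bs in this genome. In the membrane, band 3 (Slc4a1) exchanges chloride for bicarbonate and holds ankyrin (Ank1), which ties it to the spectrin network beneath, while protein 4.2 (Epb42) steadies that link. The Rh-associated glycoprotein (Rhag) and the Rh protein (Rhd) form a complex beside band 3, and Kell (Kel) is a surface endopeptidase and blood group antigen in man.

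Promoter windows are shown first, since the 8 genes stood low together in 1 set of cells and high together in the other. Of the 8 genes, 6 matched a window of 300 bases in the RefSeq table of build GRCm38.p6, which runs from 250 bases before the gene start to 50 bases after it. Words were searched on both strands: AGATAA or TGATAA, cores of sites for GATA factors; CACCC, the core of sites for Krüppel-like factors; CCAAT; and TATAA. The globin pair is printed because its difference between cells was the widest of the 8, Epb42 because it is the member that passed the test between iPS and ES cells, and Rhd because it had signal well above background on all arrays. Capitals mark the words searched, on either strand.
Hba-a1, chr11:32283422-32283721, plus strand: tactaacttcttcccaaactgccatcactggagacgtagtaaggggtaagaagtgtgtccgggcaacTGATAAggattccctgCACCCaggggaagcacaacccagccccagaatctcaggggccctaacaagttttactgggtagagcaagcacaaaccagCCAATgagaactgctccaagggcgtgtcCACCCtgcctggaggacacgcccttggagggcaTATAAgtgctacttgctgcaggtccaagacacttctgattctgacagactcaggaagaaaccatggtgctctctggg
Hbb-bt, chr7:103813874-103814173, minus strand: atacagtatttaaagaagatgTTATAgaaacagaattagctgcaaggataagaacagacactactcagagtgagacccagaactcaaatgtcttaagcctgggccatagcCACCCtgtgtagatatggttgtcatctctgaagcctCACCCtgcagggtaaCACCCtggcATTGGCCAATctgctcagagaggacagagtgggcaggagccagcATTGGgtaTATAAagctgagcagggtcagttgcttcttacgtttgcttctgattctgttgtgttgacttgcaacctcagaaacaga
Epb42, chr2:121036828-121037127, minus strand: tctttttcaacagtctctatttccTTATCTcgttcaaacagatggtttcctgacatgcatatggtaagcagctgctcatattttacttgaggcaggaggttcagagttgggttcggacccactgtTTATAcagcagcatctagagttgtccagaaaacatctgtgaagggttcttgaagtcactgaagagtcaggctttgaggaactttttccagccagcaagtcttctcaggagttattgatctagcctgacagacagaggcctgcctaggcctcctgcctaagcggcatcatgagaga
Rhd, chr4:134864286-134864585, plus strand: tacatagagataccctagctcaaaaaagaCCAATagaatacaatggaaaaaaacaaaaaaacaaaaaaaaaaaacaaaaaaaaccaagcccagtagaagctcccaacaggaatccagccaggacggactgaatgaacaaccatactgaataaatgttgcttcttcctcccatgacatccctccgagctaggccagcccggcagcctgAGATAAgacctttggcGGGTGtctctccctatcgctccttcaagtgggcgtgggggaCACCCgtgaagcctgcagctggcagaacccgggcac

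A GATA word was found in 5 of the 6 windows, Hbb-bt being the one without, and in 18.6% of all 32851 windows of the table. CACCC was found in 5 of 6, Epb42 being the one without, against 57.5% of all windows. CCAAT stood in 4 of 6 and TATAA in 3 of 6, against 37.4% and 24.9% of all windows. In Hba-a1 a TATAA began at position -27 from the gene start and in Hbb-bt at position -28. In Hbb-bt a CCAAT on the minus strand at -80 directly adjoins one on the plus strand at -75, and in Rhag the CCAAT at -115 shares bases with the CACCC at -112. Kel had GATA words at -56 and -19 and a CACCC at -5, and Rhd a GATA word at -43. These matches describe letters in the windows and show no binding. The windows of Hba-a1 and Hba-a2 share a run of 297 identical bases, those of Hbb-bt and Hbb-bs a longest run of 14.

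Levels below are log2 signals relative to the 75th percentile of the array, so 0 is the level of that percentile and each unit is a doubling. A probe that the scanner software did not mark as well above background gives only a bound for that sample, and its printed value is close to a floor set by the software. Of all probes, 54.6% to 59.0% carried that mark on an array. The 75th percentile of signal was 1120 and 1123 in iPS lines 7 and 13, 1048 in ES cells and 602 in BMMNCs. The file headers place all 4 arrays on the same slide, scanned at the same time. Levels of different probes are not comparable, so each gene is compared only with itself across samples.

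The labels were checked against marker genes. All 7 pluripotency markers were well above background in line 7, in line 13 and in ES cells, and 2 of 7 (Dppa5a and Utf1) in BMMNCs. All 6 leukocyte, 8 granulocyte and 7 measured red cell precursor markers were well above background in BMMNCs. In line 7, line 13 and ES cells, 5 of 6 leukocyte and 1 of 8 granulocyte markers were also well above background on each array, at lower levels. So were 4 of 6 measured B cell markers on each array. Of 6 megakaryocyte markers, 5 were well above background in line 7, 4 in line 13 and 4 in ES cells. All 6 of either type were well above background in BMMNCs, with higher median levels. Of the red cell precursor markers 3 were so in line 7, 4 in line 13 and 4 in ES cells. Hemgn was well above background in none of these, Klf1 in ES cells alone and Alas2 in line 13 alone. The 8 fibroblast markers were well above background in lines 7 and 13 and ES cells, with summed signals of 8.58, 8.50 and 8.36 on the log2 scale, and 4 of 8 were in BMMNCs, with 3.04. Fibroblast markers moved opposite to the red cell genes between the stem cell cultures and marrow, and the part of either difference in the results was not tested.

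The first question was how far the red cell genes differed between the iPS lines and the mixed BMMNC sample. All 8 genes fell in the iPS lines relative to BMMNCs, with log2 differences of -14.85 to -5.82. Each passed limma's test with Benjamini-Hochberg adjustment over all genes. Of the 8, 3 (Hba-a1, Rhag and Kel) passed the filter on dim probes through BMMNCs alone and could only be lower elsewhere. The median was -10.05 as fitted and -7.98 with the 4 genes well above background in neither line set to their bound, against -0.01 over all genes tested. In this comparison 75.8% of all genes tested were called, 37.8% lower and 38.0% higher, and 15.1% were at least 4-fold lower in both lines, which all 8 genes were. ES cells gave the same tally against BMMNCs, 8 of 8 lower with a median of -9.73 as fitted and -8.16 with 3 genes at their bound, where 73.5% of all genes were called, 34.7% lower and 38.8% higher. With normexp background correction, which adds an offset of 50 to every signal, the iPS minus BMMNC differences were smaller: -12.94 for Hba-a1, -11.43 for Hbb-bt, -9.93 for Slc4a1, -7.55 for Kel, -6.17 for Ank1, -6.08 for Epb42, -5.63 for Rhd and -5.51 for Rhag. The lower bounds of fold given below hold for the signals as deposited and under the rule given with the processing. The comparisons of iPS and of ES cells with marrow share the 1 BMMNC array. In such bulk samples fewer cells of a type and less RNA per cell cannot be told apart.

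**Figure D1:**
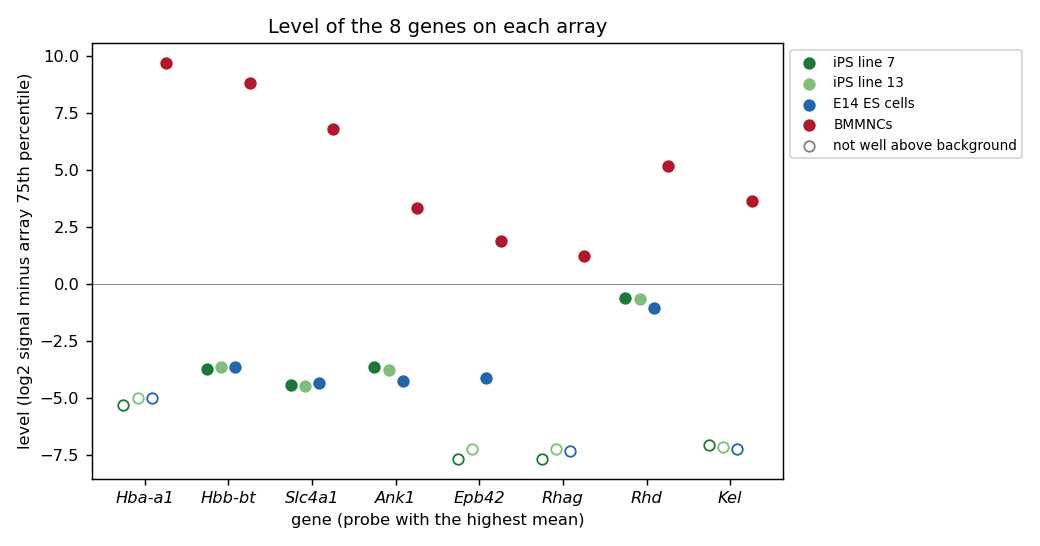
Level of each of the 8 genes (log2 signal minus the array's 75th percentile) on the 4 arrays, 1 point per array; open points were not well above background. BMMNC points lie between 1.21 and 9.67, and those of the iPS lines and ES cells below -0.6 for every gene, with Rhd the closest to 0.

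Hba-a1, the alpha chain of adult haemoglobin, read -5.33 in line 7, -5.04 in line 13 and -5.00 in ES cells, against 9.67 in BMMNCs. None of the 3 stem cell values was well above background, and the marrow value stood alone. It was at least 29340-fold lower in the iPS lines than in BMMNCs (log2 difference -14.85, SE 0.18, limma adjusted p = 0.000713) and at least 26012-fold lower in ES cells. Because Hba-a1 passed the filter on dim probes through BMMNCs alone, it could only be lower elsewhere, and its p-value adds nothing to the bound. Whether its probe also binds transcripts of the copy Hba-a2, which has no matched probe, was not tested.

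Hbb-bt, the beta chain, has 4 probes. The one with the highest mean read -3.76 in line 7, -3.64 in line 13 and -3.65 in ES cells, against 8.80 in BMMNCs, all well above background. This gave a log2 difference of -12.50 between iPS lines and BMMNCs (SE 0.11, limma adjusted p = 0.000713). The other 3 probes were well above background in BMMNCs alone, at 8.64 to 9.75 there, and were at least 14996-fold, 27798-fold and 32468-fold lower in the iPS lines. The small signal in stem cells was thus seen by 1 of the 4 probes. That probe read 82.5 ± 11.3 in line 7, 90.1 ± 13.8 in line 13 and 83.7 ± 12.4 in ES cells in linear signal units, where ± is the scanner software's error for the spot. Whether the probes also bind transcripts of the related beta-globin genes was not tested. The globin probes were bright in BMMNCs: their median pixels reached 31.5% to 66.5% of the saturation value, and none was marked as saturated.

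Slc4a1, band 3, read -4.43 in line 7, -4.50 in line 13 and -4.35 in ES cells, against 6.76 in BMMNCs, and all 4 spots were well above background. It fell by 11.22 in the iPS lines relative to BMMNCs (SE 0.097, limma adjusted p = 0.000713). The spread between the 2 lines was an SD of 0.046, and their linear signals were 51.9 ± 7.95 and 49.8 ± 9.47, against 51.5 ± 8.81 in ES cells. The 3 stem cell values lie within each other's spot error.

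Ank1, ankyrin of the red cell, has 5 probes, and they differed in what they measured. The brightest read -3.65 in line 7, -3.80 in line 13 and -4.26 in ES cells, against 3.31 in BMMNCs, with every spot well above background (iPS minus BMMNC -7.03, SE 0.12, limma adjusted p = 0.000713). A second probe was at -5.14 and -4.68 in lines 7 and 13, well above background in both and not in ES cells (-5.19), and at 2.72 in BMMNCs. The remaining 3 were well above background in BMMNCs alone, at -3.04, -1.28 and -0.01, and were at least 4.57-fold, 15.4-fold and 37.2-fold lower in the iPS lines. All 5 probes were called lower in iPS cells than in BMMNCs when probes were tested singly. The gene makes many transcripts, including short ones of muscle, and which transcripts each probe reads was not analysed here.

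Epb42, protein 4.2, has 2 probes, both well above background in BMMNCs. On the chosen probe line 7 was at -7.69 and line 13 at -7.26, neither well above background, while ES cells were at -4.16 and BMMNCs at 1.88, both well above it. It was at least 138.6-fold lower in the iPS lines than in BMMNCs (log2 difference -9.35, SE 0.24, limma adjusted p = 0.000836), and the other probe at least 137.3-fold lower. In ES cells the chosen probe was 65.7-fold lower than in BMMNCs and the other at least 128.6-fold lower.

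Of the Rh genes, Rhag was well above background in BMMNCs alone. It stood at -7.68 in line 7, -7.25 in line 13 and -7.36 in ES cells, against 1.21 in BMMNCs, and was at least 87.1-fold lower in the iPS lines (log2 difference -8.68, SE 0.24, limma adjusted p = 0.000882). As Rhag passed the filter on dim probes through BMMNCs alone, it could only be lower elsewhere, and its p-value adds nothing to the bound. Rhd had the highest iPS levels relative to its marrow level. It read -0.63 in line 7, -0.66 in line 13 and -1.09 in ES cells, against 5.17 in BMMNCs. All 4 values were well above background, and it fell by 5.82 in the iPS lines (56.5-fold, SE 0.092, limma adjusted p = 0.000713), the smallest difference of the 8 chosen probes. In linear units Rhd read 721 ± 72.3 in line 7, 713 ± 71.7 in line 13 and 494 ± 49.9 in ES cells. In mice this gene is the only one of its kind, while man has the pair RHD and RHCE.

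Kel, the Kell endopeptidase, read -7.08 in line 7, -7.19 in line 13 and -7.27 in ES cells, none well above background, against 3.61 in BMMNCs. It was at least 459.7-fold lower in the iPS lines than in BMMNCs (log2 difference -10.74, SE 0.11, limma adjusted p = 0.000713) and at least 430.6-fold lower in ES cells. Kel too passed the filter on dim probes through BMMNCs alone and could only be lower elsewhere, so its p-value adds nothing to the bound.

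**Figure D2:**
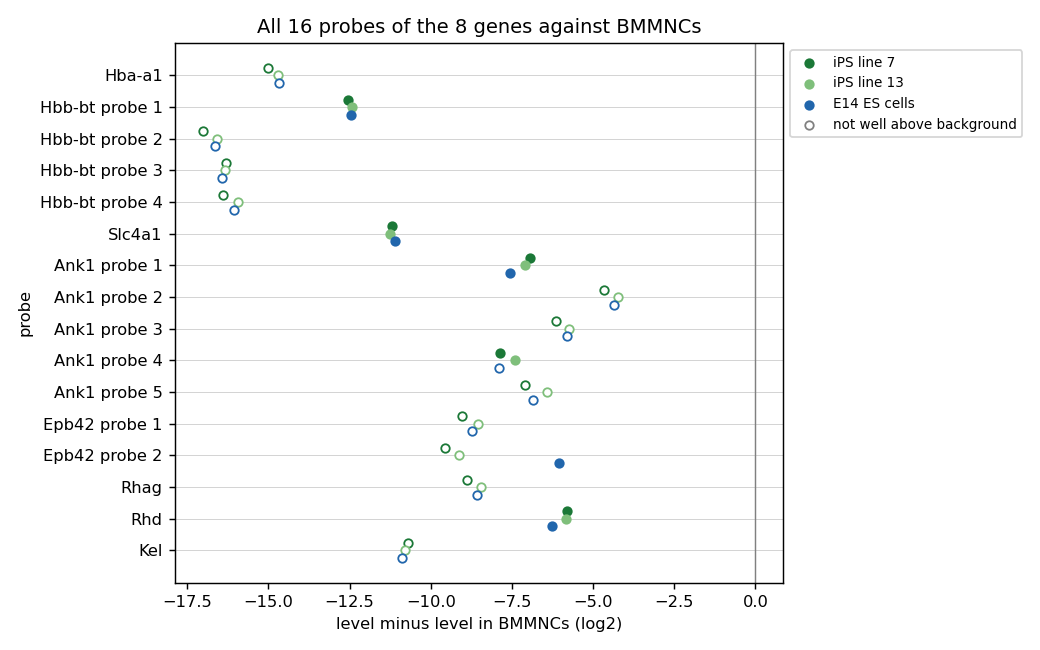
Level of each of the 16 probes in iPS line 7, iPS line 13 and ES cells minus its level in BMMNCs (log2), with probes of a gene numbered in the order of their identifiers; open points were not well above background. All points lie left of 0, and on 4 probes, 1 each of Hbb-bt, Slc4a1, Ank1 and Rhd, all 3 stem cell points are filled.

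Taken probe by probe, 5 of 16 were well above background in line 7, the same number in line 13 and in ES cells, and all 16 in BMMNCs. On 10 of 16 no stem cell array was well above background, so for these only a bound of the difference exists. These 10 passed the filter on dim probes through BMMNCs alone and could only be lower elsewhere. In the fit over 27257 single probes all 16 were called lower in iPS cells and in ES cells than in BMMNCs, where 36.4% and 33.5% of all probes were.

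The next comparison set the iPS lines against ES cells. These differ in origin and strain label, and the iPS lines came from transgenic mice, so effects of these factors cannot be told apart. Of the 8 genes, 1 fell, Epb42, none rose past the threshold, and 7 did not pass; of all genes tested 4.77% were called, 2.83% lower and 1.95% higher. At an unadjusted p under 0.05, 1 of the 8 was lower and 2 were higher, where 6636 of the 21216 genes tested had such a p. The median over the 8 was -0.08, against -0.06 over all genes. Epb42 differed by -3.32 (SE 0.24, 95% interval -4.12 to -2.52, limma adjusted p = 0.0448), but as the iPS spots were at the floor the measured part is at least 2.11-fold. It rests on 1 ES spot, with a linear signal of 58.8 ± 8.65, and on 1 probe: on the other no stem cell spot was well above background and the difference was -0.07 (adjusted p = 0.86 in the fit over single probes). The call was lost with the mean of the probes (-1.69, adjusted p = 0.0793), with no filter on dim probes (adjusted p = 0.156) and on the authors' table (adjusted p = 0.0559).

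For Ank1 and Rhd each iPS line read above ES cells, without passing the threshold. Ank1 differed by 0.53 (SE 0.12, 95% interval 0.13 to 0.93, limma adjusted p = 0.118) and Rhd by 0.44 (SE 0.092, interval 0.13 to 0.75, limma adjusted p = 0.107). Both passed when only genes above background on all arrays were tested, and with an intensity trend in the variance, where adjusted p was 0.00117 and 0.00238 for Ank1 and 0.00307 and 0.000681 for Rhd. Those settings called 5778 of 14859 and 7708 of 21216 genes tested, against 1013 of 21216 in the main fit. With the mean of its 5 probes Ank1 differed by 0.12 (adjusted p = 0.736). Slc4a1 and Hbb-bt, measured on all arrays, differed by -0.12 (interval -0.44 to 0.21) and -0.06 (interval -0.42 to 0.31). For Hba-a1, Rhag and Kel, with no iPS or ES array well above background, no difference could be measured.

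**Figure D3:**
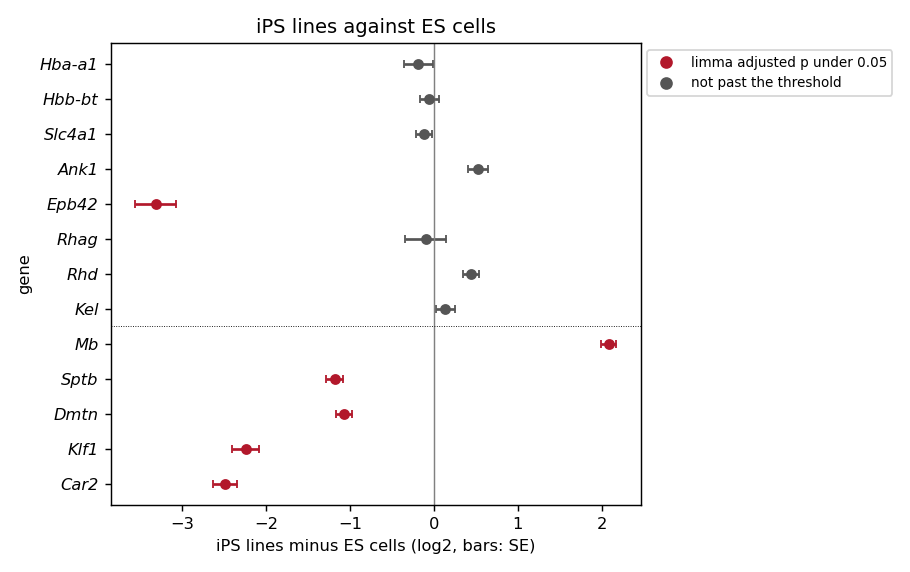
Difference between iPS lines and ES cells (log2, iPS minus ES; bars are standard errors of the limma fit) for the 8 genes, above the dotted line, and for 5 other red cell or globin genes past the threshold, below it. Epb42 lies at -3.32 and the other 7 of the 8 genes between -0.19 and 0.53.

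Between the iPS lines, 4 of the 8 genes could be compared, being well above background in both. None of these was 2-fold apart, where 3.24% of all genes tested were, a share too small for that count to say anything of these genes. The differences, line 7 minus line 13, were 0.02 for Rhd, 0.06 for Slc4a1, 0.15 for Ank1 and -0.12 for Hbb-bt, each smaller than the spot error of its difference, 0.20 to 0.35. The remaining 4 had no iPS spot well above background. With 1 array per line these differences have no test.

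Other genes of the red cell were then counted in lists chosen by function. Of the 76 list genes tested, 13 passed the filter on dim probes through BMMNCs alone and could only be lower elsewhere. Of all genes tested, 37.8% were called lower in the iPS lines than in BMMNCs and 38.0% higher. Of 12 genes in the list of other globins and the globin chaperone, 5 have a matched probe and 4 were tested; 3 fell in the iPS lines relative to BMMNCs. Hbb-y, the embryonic epsilon-like chain, was well above background in BMMNCs alone, at 2.02, and at least 152.6-fold lower in the iPS lines. Hbq1a, a theta globin, was at least 31.8-fold lower and its copy Hbq1b fell by 5.32 (SE 0.31, limma adjusted p = 0.00226). Hbb-bh1, an embryonic beta-like chain, read -3.89 in line 7, the 1 stem cell array on which it was well above background, at -5.45 in line 13, -5.47 in ES cells and -2.04 in BMMNCs (iPS minus BMMNC adjusted p = 0.0669). Hba-x, the embryonic alpha-like chain, was well above background on no array. Whether the embryonic probes also bind the abundant adult transcripts was not tested.

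Of 3 globins outside red cells, 1 rose, 1 fell and 1 did not pass. Mb, myoglobin of muscle, was not well above background in BMMNCs and its iPS signal was higher by at least 5.46-fold, at -2.49 in line 7, -2.48 in line 13 and -4.57 in ES cells. Cygb, cytoglobin, found in fibroblasts among other cells, fell by 0.95 relative to BMMNCs (SE 0.12, limma adjusted p = 0.00944), and Ngb, neuroglobin, differed by 0.22 (adjusted p = 0.15). The Rh relatives of other tissues also split: Rhbg was higher in iPS cells, by at least 8.02-fold, and Rhcg fell by 1.09 (SE 0.11).

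In the membrane skeleton list, 13 of 14 genes tested fell in the iPS lines relative to BMMNCs and 1 rose. Tmod1, which caps the short actin filaments, and Add2, beta-adducin, were at least 72.0-fold and 44.0-fold lower. Sptb, beta-spectrin, fell by 6.51 (SE 0.10), and Stom, stomatin, fell by 4.61 (SE 0.092). The gene that rose was Tpm1, a tropomyosin (3.13, SE 0.15). The list's median was -2.51.

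Among 22 other surface proteins tested, 16 fell, 5 rose and 1, Ackr1, did not pass (-4.26, adjusted p = 0.0609). Ermap, an erythroblast surface protein, was at least 377.5-fold lower, Aqp1, the water channel, fell by 8.71 (SE 0.13) and Slc14a1, the urea transporter, fell by 8.31 (SE 0.096). The 5 that rose were Bcam, at least 48.7-fold higher, Aqp3 (4.92), Slc2a1 (4.07), Sema7a (1.44) and Slc29a1 (0.92).

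Of 15 transcription factors of red cell formation, 14 fell and 1, Ldb1, did not pass (-0.22, adjusted p = 0.124). Nfe2 was at least 1195-fold lower, Tal1 at least 579-fold lower and Klf1, the activator of adult beta-globin, at least 313.3-fold lower, and Lyl1 fell by 9.35 (SE 0.11). Gata1, the master factor of the lineage, read -3.20 in line 7, -3.32 in line 13 and -4.31 in ES cells, against 2.54 in BMMNCs, well above background on each. All 16 genes of late red cell precursors tested fell, from Hemgn, at least 1400-fold lower, Trim10, at least 921-fold lower, Car1 (-8.99) and Alas2 (-12.95, SE 1.65, adjusted p = 0.00996) to Cat (-1.06).

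**Figure D4:**
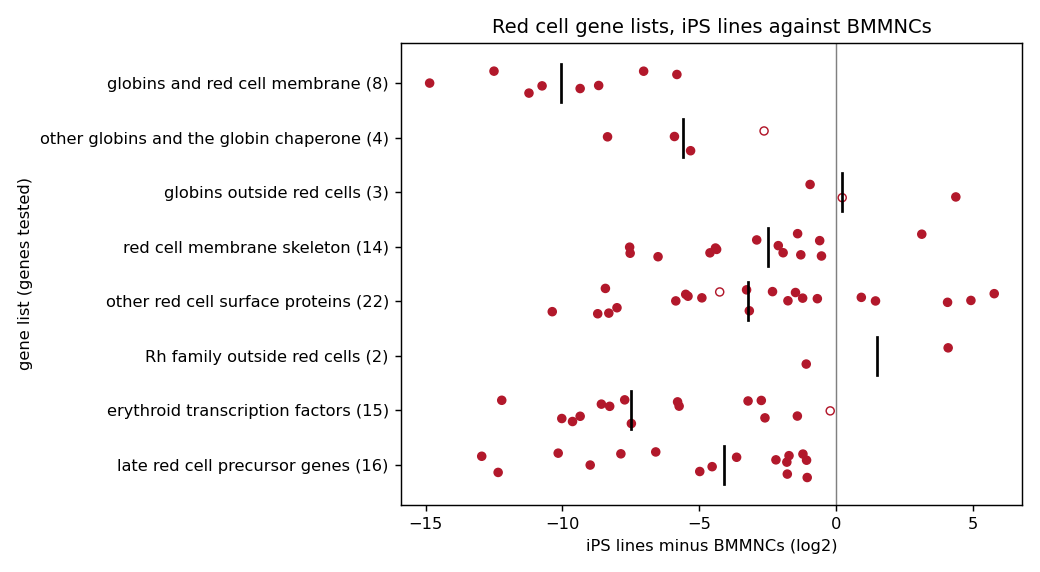
Difference between iPS lines and BMMNCs (log2, iPS minus BMMNC) for the 8 genes and for the 76 genes of 7 other lists, 1 point per gene and a black bar at each list's median; filled points passed limma's adjusted threshold. The median of fitted values is -10.05 for the 8 genes, -7.48 for the transcription factors and -2.51 for the membrane skeleton. With the 5 transcription factors well above background in neither line set to their bound, their list's median is -6.39.

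Between iPS lines and ES cells, 6 of these 76 genes passed, 2 higher and 4 lower. Of all genes tested 4.77% were called, 1.95% higher and 2.83% lower. Sptb read -4.34 in line 7, -4.42 in line 13 and -3.20 in ES cells and fell by 1.18 (SE 0.10, limma adjusted p = 0.0464). Of the 2 other Sptb probes, 1 differed by -1.59, but neither iPS line was well above background there, so only a bound exists. The other, with no stem cell spot well above background, differed by -0.02. Dmtn, dematin, which bundles actin, fell by 1.07 and both of its probes gave this direction (-1.07 and -1.17). The Sptb and Dmtn calls were lost with the mean of probes. Car2, a carbonic anhydrase, fell by 2.49, Mb rose by 2.08, and Klf1, at the floor in both lines, was lower by at least 1.42-fold, a call lost with quantile normalization. With no filter on dim probes and on the authors' table none of the 6 passed, as no gene did; 4719 and 6634 genes had an unadjusted p under 0.05 there. Between the 2 lines 3 of the 76 were 2-fold apart, where 3.24% of all genes tested were. Each of the 3 was well above background in 1 line alone: Alas2 in line 13 (-7.64 in line 7, -4.45 in line 13), and Hbb-bh1 and Ackr1 in line 7.

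Genes with the most similar pattern were sought among 10969 genes with a symbol that were well above background in BMMNCs, by the root mean square difference of centred levels over the 4 arrays. Closest to the mean of the 8 were Smim5 (0.13 log2 units), Rnase6 (0.15), Cldn13 (0.15), Gimap1 (0.15) and Tnfsf14 (0.16). Closest to Slc4a1 were Prg2 (0.18), Trem3 (0.18) and Pilrb1 (0.20), and among the closest to Kel were Fpr2 (0.16) and Ms4a1 (0.22). All of those named were at the floor in lines 7 and 13 and ES cells, so the likeness rests on the size of their difference from BMMNCs.

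Every p-value above draws its error from 1 residual degree of freedom, the difference between lines 7 and 13. The single ES and BMMNC arrays are assumed to be as variable as those lines. The labels do not say that the samples were separate cultures or animals, so technical spread may be all that the p-values measure. Where both lines are at the floor, a gene's own spread is the spread of the floor.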

How the data were processed

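RNA of the 4 samples was labelled with Cy3 and read on single-colour Agilent arrays, per the labels' protocols. The deposited values are intensities from Agilent Feature Extraction 9.5, per the submitters' processing notes (9.5.1.1 per the file headers): a background-subtracted signal per spot, where dim spots hold a small positive substitute. The authors' table, also an intensity, was found to be that signal times 1 factor per array, linear and not centred; its column medians were 135.9 (line 7), 133.6 (line 13), 139.9 (ES cells) and 106.2 (BMMNCs), and the origin of the factors stays unknown. No unit other than these deposited intensities, spot errors and 0 or 1 marks was used.

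Control and outlier spots were left out, spots of a probe averaged on the log2 scale, and the 75th percentile of the array's log2 signals over all spots that are no control was subtracted. RefSeq accessions, without versions, named 22948 of 41160 probes through the gene table of assembly GRCm38.p6; the array design used an earlier build, and coordinates are given for RefSeq promoter windows only. A gene took its probe with the highest mean, and was tested if well above background on at least 1 array. The model was limma 3.58.1 (R 4.3.3), over all 4 arrays, with a mean each for iPS, ES and BMMNC (prior of 1.80 degrees of freedom, SD 0.093), with Benjamini-Hochberg adjustment and a threshold of 0.05. The script was tested on simulated data. A fold given as a lower bound sets the bright group against, per dim array, the higher of the probe's own level and the lowest level of any probe well above background. That lowest level is no ceiling for unmarked probes: in ES cells it was -5.14, and Tal1 was unmarked at -4.59.

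Members and lists were chosen with earlier results of these data known. Named genes are all 8 members, from each list the 4 widest differences from BMMNCs and all called against ES cells, and the nearest patterns; Tpm1, Gata1, Cat, Ldb1, Ackr1 and the risen surface genes were named after their values were seen. The files hold no mean spot signal, so normexp (offset 50) used the median spot signal. Some genes that this rule names are not reported here; the counts include them.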

Additional observations from a re-analysis of the deposited data

How the results depend on the processing

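Against BMMNCs all 8 genes kept their direction, iPS and ES cells alike, and passed in every setting in which they were tested; requiring signal above background on all arrays left 4 of the 8 to test, and 4 were called lower, in each comparison. Sizes moved: with normexp the iPS minus BMMNC differences ran from -12.94 to -5.51, and with the mean of probes Hbb-bt was -15.45 and Ank1 -6.37. Over all genes the iPS minus BMMNC calls were 7375 higher and 10020 lower with normexp, 7104 and 9087 with median scaling and 8690 and 7383 on the authors' table, where the median of all genes shifted by -0.19, -0.19 and 0.13. Without line 7 or line 13, 8 of 8 stayed at least 4-fold lower in iPS cells than in BMMNCs. Between iPS and ES cells counts moved with the setting, from 1013 genes (413 higher, 600 lower) to 5140 (2098 and 3042) with normexp, 5778 (2424 and 3354) above background on all arrays, 7708 (3309 and 4399) with an intensity trend, 640 with 359 lower for the mean of probes, and 0 with no filter and on the authors' table. Of the 8 genes, 1 was called higher with normexp (Rhd, 0.33), and 2 above background on all arrays and with an intensity trend (Ank1 and Rhd); 0 were called lower in the 2 settings with no calls, with the mean of probes and above background on all arrays, where Epb42 is not tested. Epb42 was called in 5 of the 8 alternatives that tested it, at -3.32 to -0.96, and was -3.53 and -3.10 with 1 line left out, with no test. Reversed without a call were Rhag with normexp (0.0298) and quantile normalization (0.0143), and Hbb-bt with quantile normalization (0.0277) and median scaling (0.0347); without line 7 they were 0.12 and 0.0062, and without line 13 -0.32 and -0.12. Rhag was at the floor on the arrays compared and the Hbb-bt values are within their interval, so these signs carry no information. The causes were not tested. Line 7 minus line 13 for Ank1 moved to -0.37 with the mean of probes. The percentile over distinct probes and the tests of single probes were added after seeing the data. No paired analysis was possible because the groups share fewer than 2 replicate numbers, and the 1 that ES cells and BMMNCs share was given in accession order. The number of arrays, and for 10 of 16 probes the background, limit the precision.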
